A study of Homo sapiens with 24 samples.

Results

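Homologous recombination and Fanconi repair genes were followed across 24 expression arrays of SW1222 cells, a long-used line from a human colorectal cancer. The 36 genes were named by a list: the mediators around BRCA1 and BRCA2, the BLM helicase and the nucleases of joint molecules, the Fanconi anaemia proteins, the checkpoint kinases and a pair of mismatch repair genes. Of these, 31 had a probe set with 1 gene symbol and were measured among 17448 genes. BRCA2, FANCA, FANCD2, RBBP8 and RAD51D were not analysed here: the annotation used gave RAD51D only a probe set shared with another symbol, and the others none.

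The study perturbed DPPA3, a gene of oocytes and early germ cells, in both directions and asked what that did to gene expression. Cells overexpressing DPPA3 under doxycycline, called the induced line here, and a matched control line grew in Matrigel as megacolonies (3D), with the drug at 5 µg/ml for the last 5 days, on 3 arrays per line. The same lines were also grown in 2D and given 5 µg/ml for 4 hours, again on 3 arrays per line. Knockdown was represented by a DPPA3 shRNA line and a control shRNA line in 3D (3 arrays each), and knockout by CRISPR clones 66 and 75 and a line with a scrambled guide in 3D (2 arrays each). No doxycycline is given in the labels of those 5 groups, and all cells were kept at 21% oxygen and 5% CO2. Each clone is a single clone, and no array of the induced line without doxycycline was analysed here, so whether DPPA3 or a standing difference between those lines sets a value cannot be told apart.

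The deposited values are log2 signals, and 1 unit is a doubling. Differences were tested with limma over all 17448 genes, with 1 fit over the 9 groups, and the threshold was a Benjamini-Hochberg adjusted p of 0.05. Errors of differences are standard errors from that fit. The labels do not say whether the arrays of a group came from separate cultures, so the p-values reflect array-to-array spread, which may be technical. All 11 colorectal epithelial markers, among them EPCAM, CDX2 and VIL1, were brighter than the median gene, and 8 of 9 measured fibroblast, leukocyte and endothelial markers were dimmer. The exception was COL1A1, with 52.8% of genes dimmer. Array medians ran from 4.01 to 4.12, and the first principal component, with 38.9% of the variance, separated the induction arrays from the shRNA and guide arrays, so no test crosses that border.

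The DPPA3 probe set checked the induction. In 3D its log2 signal was 3.77, 4.54 and 4.74 in the induced line and 2.99, 2.59 and 2.97 in the control line, a difference of 1.50 ± 0.31 (adjusted p = 0.00251). In 2D the induced arrays read 4.73, 4.18 and 6.16 and the control arrays 2.83, 3.27 and 3.47, a difference of 1.84 ± 0.31 (adjusted p = 0.000475). In the 12 arrays of the shRNA and guide lines DPPA3 lay between 2.55 and 3.19, and the knockdown and knockout arrays overlapped those of their controls. At that signal the arrays do not check the knockdown and knockout labels.

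As background, homologous recombination repairs a broken chromosome by copying an intact sister. NBN, RBBP8 and EXO1 take part in trimming the broken end, BRCA1 with BARD1 and PALB2 bring BRCA2 to it, and BRCA2 prepares that end for the search for the sister, in which RAD54L takes part. The joined molecules are taken apart either by dissolution, the work of the BLM helicase with RMI1 and RMI2, or by cutting, done by MUS81-EME1 and nucleases held by the scaffold SLX4. Where a crosslink blocks both strands, the Fanconi core complex and the ubiquitin-conjugating enzyme UBE2T mark the FANCI-FANCD2 pair with ubiquitin, which brings the repair nucleases in. Many of these genes are switched on with DNA replication, and in the colon inherited defects of mismatch repair are a known cause of cancer.

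The induced line in 3D had 10 of the 31 measured members past the threshold: BLM, EME1, XRCC2, RAD51C, BRCA1, RAD54L, FANCI, CHEK1 and MSH6 were lower, and FANCF was higher. Of all 17448 genes, 5.7% passed in this comparison, 2.77% as lower and 2.93% as higher. The members lay on the low side, with 25 of 31 below 0 and a median log2 difference of -0.21, beside 52.6% of all genes below 0 and a median of -0.0095. BLM stood furthest out, at 2.17-fold lower.

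The promoters of 4 of these genes are shown. BLM had the largest fall and XRCC2 the next. EME1 was the only member whose difference of induction effects between cultures passed the threshold, and FANCF the only rise that passed. Each line gives the 250 bases before the start of the gene in RefSeq (build GRCh38.p14), read on the gene's strand from 5′ to 3′. Capitals mark CCAAT boxes and E2F-type words, either strand. The E2F-type words searched were TTCCCGC with its variant TTCGCGC, then the related word TTGCCGC and finally the word TTGGCGC. The windows lie at chr15:90717096-90717345 (plus strand) for BLM, chr7:152676142-152676391 (minus) for XRCC2, chr17:50372979-50373228 (plus) for EME1 and chr11:22625824-22626073 (minus) for FANCF.
BLM: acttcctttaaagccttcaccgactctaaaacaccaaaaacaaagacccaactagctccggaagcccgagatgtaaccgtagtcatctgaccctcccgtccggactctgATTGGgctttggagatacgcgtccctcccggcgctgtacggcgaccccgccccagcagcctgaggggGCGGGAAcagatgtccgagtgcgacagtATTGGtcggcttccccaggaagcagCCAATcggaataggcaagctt
XRCC2: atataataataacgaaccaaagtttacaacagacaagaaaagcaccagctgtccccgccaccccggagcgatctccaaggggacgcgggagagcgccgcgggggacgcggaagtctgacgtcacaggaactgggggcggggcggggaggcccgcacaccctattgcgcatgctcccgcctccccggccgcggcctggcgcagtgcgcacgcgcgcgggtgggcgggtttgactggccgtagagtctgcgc
EME1: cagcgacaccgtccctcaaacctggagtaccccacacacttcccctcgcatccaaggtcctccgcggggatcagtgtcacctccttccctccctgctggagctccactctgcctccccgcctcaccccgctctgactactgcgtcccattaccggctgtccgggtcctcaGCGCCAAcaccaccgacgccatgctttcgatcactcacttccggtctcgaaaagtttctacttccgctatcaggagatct
FANCF: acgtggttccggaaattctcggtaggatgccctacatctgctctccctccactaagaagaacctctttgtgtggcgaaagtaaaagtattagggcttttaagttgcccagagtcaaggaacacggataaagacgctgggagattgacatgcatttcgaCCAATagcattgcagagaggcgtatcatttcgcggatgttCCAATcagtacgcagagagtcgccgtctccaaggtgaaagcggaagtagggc
The BLM window held 3 CCAAT boxes, at 141, 46 and 21 bases before the start, and 1 E2F-type word, GCGGGAA, at 74 bases before it. EME1 held 1 E2F-type word, GCGCCAA, at 80 bases before the start, and FANCF held 2 CCAAT boxes, at 92 and 52 bases before it. The XRCC2 stretch held none of these words. Past the stretches shown, in the first bases of the transcript, E2F-type words lay in 3 of the 4 genes: GCGGGAA 21 bases after the start in XRCC2, TTCGCGC 1 base after it in FANCF, and GCGGGAA and TTGGCGC 3 and 22 bases after it in BLM.

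Promoter words were counted over the whole window of 250 bases before and 50 after the start, both strands, in 35116 RefSeq windows. Windows were found for 27 of the 31 measured members, 40 in all because some genes have several starts. An E2F-type word was in 57.5% of the member windows and 13% of all windows, and 17 of the 27 members had at least 1. A CCAAT box was in 52.5% of member windows against 34.6% of all. The CHR words TTTGAA and TTTAAA were in 15% against 24%, and the hypoxia-type word ACGTG in 22.5% against 21.4%. An E2F-type word was found for 6 of the 8 lower members with a window, XRCC2 and BLM among them. CCAAT and E2F-type words can share bases, where ATTGG runs on into an E2F-type word. These are matches of letters, not sites of binding.

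Among the genes that take joined DNA molecules apart, BLM and EME1 were lower in the induced line in 3D and the others were not called. BLM, the RecQ helicase whose loss causes Bloom syndrome, read 5.70, 5.36 and 5.68 in the induced arrays and 6.73, 6.58 and 6.78 in the control arrays. Every induced array lay below every control array, and the difference was -1.12 ± 0.11 (adjusted p = 1.47e-07). EME1, the partner that makes the MUS81 nuclease active, read 3.45, 3.57 and 3.58 against 4.21, 4.36 and 3.82, a difference of -0.59 ± 0.14 (adjusted p = 0.00735). Its arrays did not overlap either, but its signal was dim, below that of the median gene over all arrays, and without control array 2 the adjusted p was 0.0651. MUS81 itself differed by 0.13 ± 0.11, SLX4 by -0.12 ± 0.10, and BLM's partners RMI1 by -0.04 ± 0.14 and RMI2 by -0.05 ± 0.10.

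**Figure D1:**
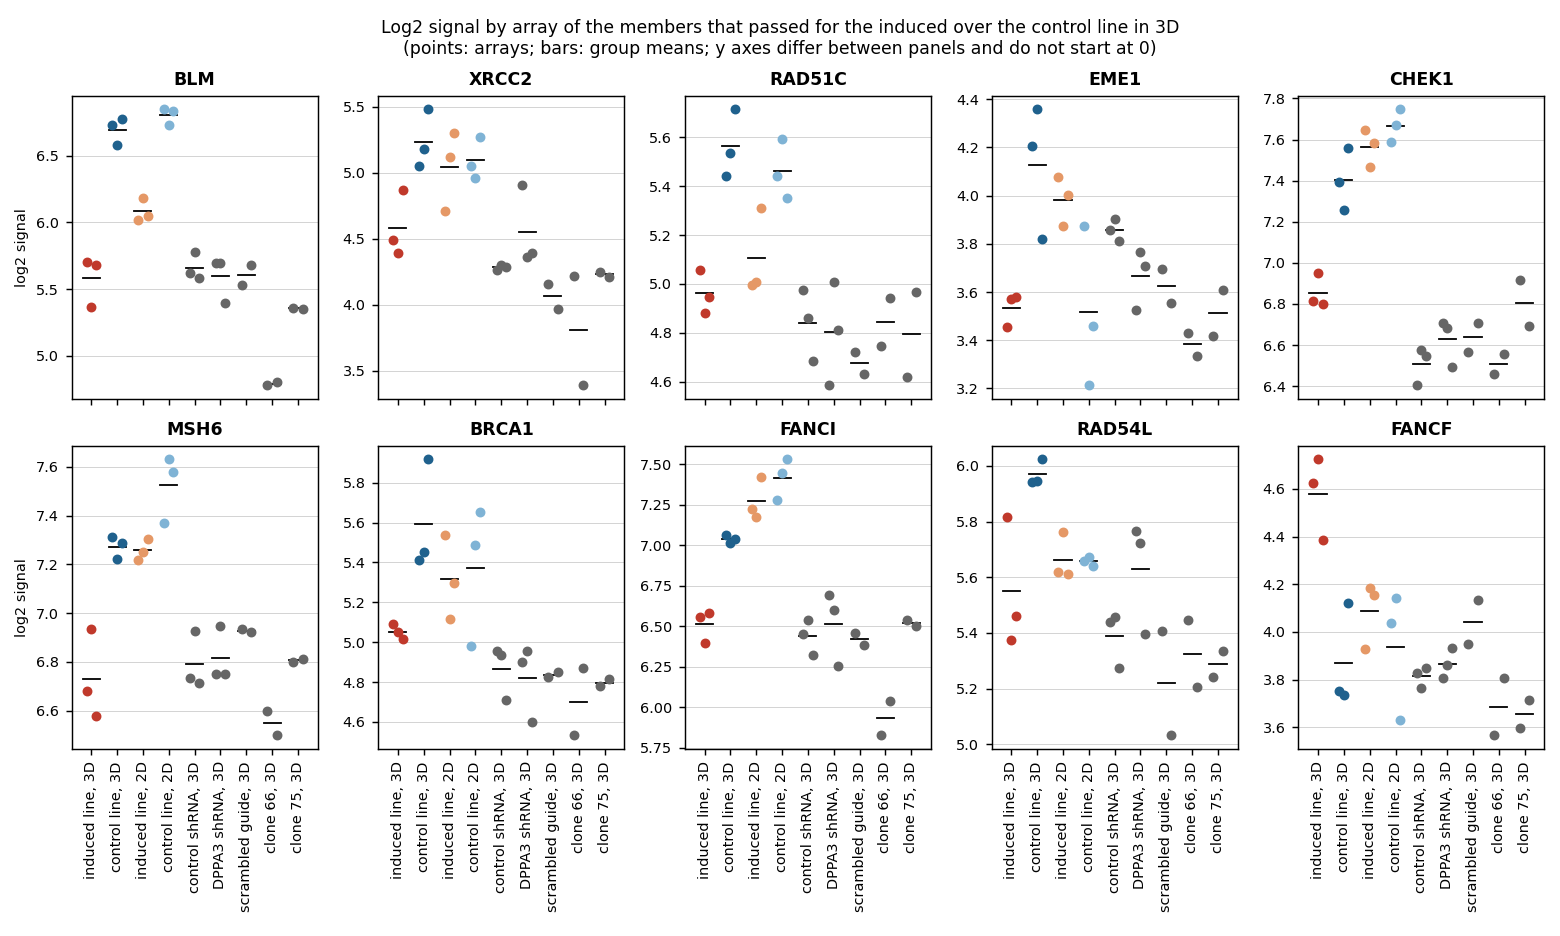
Log2 signal (y axis, a scale of its own in each panel) of the 10 members that passed for the induced over the control line in 3D, by group (x axis). Points are arrays and bars group means. The 10 genes were picked by this same comparison, so the gap between their induced and control arrays in 3D adds no support.

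The group called mediators here also holds EXO1 and NBN of end trimming, and RAD54L with its paralog RAD54B. It had 4 of 10 measured members lower in the induced line and 0 higher. XRCC2, which takes part in homologous recombination, read 4.49, 4.39 and 4.87 in the induced arrays and 5.05, 5.18 and 5.48 in the control arrays, a difference of -0.65 ± 0.18 (adjusted p = 0.0303). RAD51C, which forms a complex with XRCC2 and another with XRCC3, read 5.06, 4.88 and 4.95 against 5.44, 5.53 and 5.71, a difference of -0.60 ± 0.12 (adjusted p = 0.00291). Both genes were lower in every induced array than in any control array. BRCA1, the ubiquitin ligase that favours recombination over end joining, read 5.09, 5.05 and 5.01 against 5.41, 5.45 and 5.92, a difference of -0.54 ± 0.15 (adjusted p = 0.0353). The motor protein RAD54L read 5.82, 5.37 and 5.46 against 5.94, 5.95 and 6.02, a difference of -0.42 ± 0.12 (adjusted p = 0.0394). The remaining members, EXO1, BARD1, XRCC3, PALB2, NBN and RAD54B, ran from -0.36 ± 0.14 (EXO1, a nuclease of end trimming) to 0.02 ± 0.11 (RAD54B), and none passed.

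These calls were not equally firm. The RAD51C call held without any single array, with a highest adjusted p of 0.0239. The XRCC2 call was lost without induced array 1 or 2 or control array 2 or 3 (adjusted p = 0.0615 to 0.157), the BRCA1 call without induced array 1, 2 or 3 or control array 3 (0.0726 to 0.228), and the RAD54L call without induced array 2 or 3 or control array 1, 2 or 3 (0.0801 to 0.166).

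In the Fanconi pathway FANCF rose and FANCI fell. FANCF, the adaptor that holds the core complex together, read 4.62, 4.72 and 4.39 in the induced arrays and 3.75, 3.74 and 4.12 in the control arrays, a difference of 0.71 ± 0.13 (adjusted p = 0.000828). It was the 1 member of 7 measured in the core group to pass. FANCI, the partner of FANCD2 on DNA, read 6.55, 6.39 and 6.58 against 7.06, 7.01 and 7.04, a difference of -0.53 ± 0.11 (adjusted p = 0.00342). Neither gene's groups overlapped, and both calls held without any single array. UBE2T, the conjugating enzyme, differed by -0.44 ± 0.15 and FANCG by -0.36 ± 0.11, neither past the threshold. The helicase BRIP1 (FANCJ) differed by -0.26 ± 0.15, and FANCC, FANCE, FANCL and the translocase FANCM ran from -0.08 ± 0.15 (FANCM) to 0.24 ± 0.19 (FANCC).

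Of the kinases, CHEK1 was lower, and of the mismatch repair genes, MSH6. CHEK1, the kinase that carries the replication stress signal from ATR, read 6.81, 6.95 and 6.80 in the induced arrays and 7.39, 7.26 and 7.56 in the control arrays, a difference of -0.55 ± 0.10 (adjusted p = 0.00106). MSH6, which takes part in recognising single mismatches, read 6.68, 6.93 and 6.58 against 7.31, 7.22 and 7.29, a difference of -0.54 ± 0.10 (adjusted p = 0.00113). The groups of each gene lay apart, and both calls held without any single array. ATM differed by -0.13 ± 0.12, ATR by -0.16 ± 0.11, CHEK2 by -0.21 ± 0.15 and PMS2 by 0.17 ± 0.16. CHEK2 and PMS2 have near-identical pseudogene copies, so their probe sets may not read those genes alone.

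The other repair lists had medians closer to 0 than the members, by little for the other mismatch repair genes (-0.20), and the lists of dividing cells medians further from it. The members were not uniform. By role their medians ran from -0.39 for FANCI with BRIP1 to -0.06 for the Fanconi core. The mediators had a median of -0.33, and the genes of dissolution and cutting one of -0.08. Of 49 other measured genes of recombination and Fanconi repair, 3 passed in 3D, with a median of -0.11: the helicase FBH1 (-1.05 ± 0.15) and BABAM1, a subunit of a BRCA1 complex (-0.82 ± 0.13), were lower and SWSAP1 was higher (0.36 ± 0.10). Of 17 further checkpoint genes, TIPIN (-0.54 ± 0.12) and CLSPN (-0.57 ± 0.15), both of the replication fork, were lower, with a median of -0.12. End joining had 2 of 11 past the threshold, APLF higher (0.48 ± 0.12) and XRCC6 lower (-0.34 ± 0.10), excision repair had 0 of 20 and the other mismatch repair genes 0 of 3. At an unadjusted p under 0.05 the last-named lists had 6 and 1 genes, beside 16.0% of all genes.

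Genes of DNA replication were lower for 14 of 37 with a median of -0.38, and mitotic genes for 13 of 21 with a median of -0.41. The smallest p-values belonged to the helicase factor MCM10 (-1.18 ± 0.14), MCM7 (-0.71 ± 0.10) and CDC45 (-0.59 ± 0.11) in the first list, and to UBE2C (-0.54 ± 0.09), KIF23 (-0.64 ± 0.11) and the proliferation marker MKI67 (-0.56 ± 0.10) in the second. By size of the difference, GINS1 (-0.61 ± 0.12) lay ahead of CDC45, and KIF11 (-0.69 ± 0.15) was the lowest of the second list. MCM10 also differed between the clones, higher in clone 66 than in clone 75 by 0.71 ± 0.18 (limma, adjusted p = 0.0228). Its neighbours along the chromosome were not examined. The mean log2 signal of the 37 replication genes was 5.61 to 5.77 in the induced arrays and 6.02 to 6.09 in the control arrays, and that of the 21 mitotic genes 6.17 to 6.42 against 6.64 to 6.78. MKI67 read 7.30, 7.76 and 7.28 against 7.97, 8.0 and 8.06. Induced array 2, the highest of its group for MKI67, was the highest for 13 of the 31 members, the lowest for 11 and between the others for 7, a comparison chosen after the values were seen. Of the 10 members past the threshold it was the highest for 3, the lowest for 5 and between for 2. With 3 arrays in the group, such places cannot show whether members follow MKI67, and nothing is read from them. In bulk RNA, fewer dividing cells and less RNA per cell cannot be told apart, and the part of these lists in the members' differences was not tested. Epithelial markers had a median of 0.17 and markers of other cell types one of -0.04, with 0 of 11 and 0 of 9 past the threshold and 3 and 0 at an unadjusted p under 0.05.

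After 4 hours in 2D only BLM passed among the 31 members, beside 3.13% of all genes. BLM read 6.02, 6.18 and 6.05 in the induced arrays and 6.85, 6.73 and 6.84 in the control arrays, a difference of -0.72 ± 0.11 or 1.65-fold (adjusted p = 0.000119). The groups lay apart, and the highest adjusted p without any 1 array was 0.00147. EME1 leaned the other way: its induced arrays read 4.08, 3.87 and 4.00 and its control arrays 3.88, 3.21 and 3.46, with overlap, a difference of 0.47 ± 0.14 (adjusted p = 0.0598). Without control array 1, the highest of that group, the EME1 difference was 0.65 with an adjusted p of 0.00539. RAD51C read 5.00, 5.01 and 5.31 against 5.44, 5.59 and 5.35, a difference of -0.36 ± 0.12 without overlap (adjusted p = 0.143).

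The other 28 members in 2D ran from -0.32 ± 0.16 for PMS2 to 0.30 ± 0.16 for FANCE, and the median of all 31 was -0.02. Replication genes had a median of -0.0019 in 2D, with TYMS higher (0.60 ± 0.11) and MCM10 lower (-0.70 ± 0.14), and mitotic genes one of 0.04 with 0 of 21 past the threshold and 3 at an unadjusted p under 0.05, beside 13.6% of all genes. The other recombination and Fanconi genes had 3 of 49 lower, BABAM1 (-0.81 ± 0.13), FBH1 (-0.70 ± 0.15) and RAD51B (-0.51 ± 0.11). RAD1, a clamp subunit of the checkpoint, was higher by 0.59 ± 0.10. Neighbours along the chromosome were not examined for the genes of these other lists. Of the epithelial markers KRT20 (-0.54 ± 0.12) and CDH17 (-0.32 ± 0.09) were lower. In the same 2D arrays MKI67 differed by -0.05 ± 0.10. The mean signal of the replication genes was 6.27 to 6.43 in the induced arrays and 6.30 to 6.39 in the control arrays. The part of cell division in the BLM difference was not tested.

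**Figure D2:**
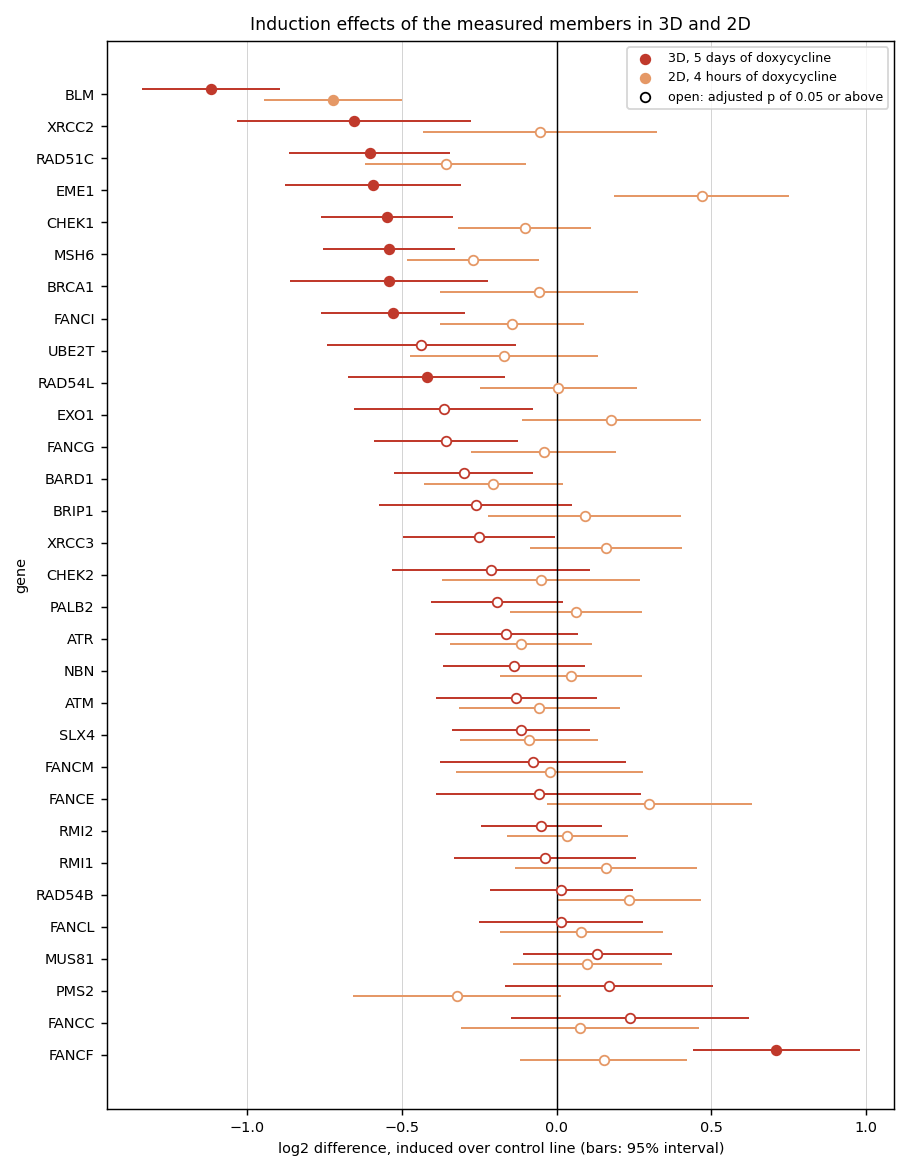
Log2 difference of the induced over the control line (x axis, with the 95% interval) for each of the 31 measured members (y axis, ordered by the difference in 3D), in 3D and in 2D; filled points passed. BLM is filled in both cultures, and EME1 lies at -0.59 in 3D and 0.47 in 2D.

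The induction effect itself differed between the cultures for EME1. In 3D it was lower in the induced line and in 2D it leaned higher, and the difference of the effects was -1.06 ± 0.19 (adjusted p = 0.017), the 1 member of 31 to pass beside 0.241% of all genes. Leaving out induced array 1 or control array 2 of the 3D cultures ended the call (adjusted p = 0.0575 and 0.0582). CHEK1, with 2D arrays at 7.65, 7.47 and 7.58 in the induced line and 7.59, 7.67 and 7.75 in the control line, had a difference of effects of -0.44 ± 0.14 (adjusted p = 0.285). FANCF, at 3.93, 4.18 and 4.15 against 4.04, 4.14 and 3.63 in 2D, had one of 0.56 ± 0.18 (adjusted p = 0.287). For BLM it was -0.39 ± 0.15 with a 95% interval from -0.70 to -0.08 (adjusted p = 0.396), so the fall in 3D was not shown to exceed that in 2D. Below 0 were 27 of 31 members, with a median of -0.25 beside -0.01 for all genes, and the replication and mitotic lists had medians of -0.34 and -0.45. An unadjusted p under 0.05 was met by 11 members (35.5%), beside 8.98% of all genes. The cultures differ in geometry and in the time on doxycycline, which cannot be told apart.

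DPPA3 knockdown moved 0 of 31 members past the threshold by limma, beside 0.086% of all genes. At an unadjusted p under 0.05 there were 2 members (6.45%), near the 5.26% of all genes. Those were PMS2 and ATM. PMS2 read 5.04, 4.66 and 4.50 with the DPPA3 shRNA and 5.00, 5.22 and 5.20 with the control shRNA, a difference of -0.41 ± 0.16 (adjusted p = 0.782). ATM, the kinase activated by double-strand breaks, read 5.74, 5.57 and 5.21 against 5.14, 5.28 and 5.19, a difference of 0.31 ± 0.12 (adjusted p = 0.788). RAD54L read 5.77, 5.72 and 5.40 against 5.44, 5.46 and 5.27, a difference of 0.24 ± 0.12 (adjusted p = 0.961). All 3 pairs of groups overlapped. BLM read 5.69, 5.69 and 5.40 against 5.62, 5.78 and 5.58, a difference of -0.06 ± 0.11 with a 95% interval from -0.28 to 0.16. Knockdown is meant to move DPPA3 the opposite way from induction, and the DPPA3 signal does not check it. No comparison with the fall in the induced line is therefore drawn.

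Of the knockout clones, clone 66 had a lower BLM, the 1 member of 31 that passed beside 1.43% of all genes. BLM read 4.78 and 4.80 in clone 66 and 5.53 and 5.68 with the scrambled guide, a difference of -0.81 ± 0.13 or 1.76-fold (adjusted p = 0.000569), and the call held without any single array. FANCI read 5.83 and 6.04 against 6.46 and 6.39, a difference of -0.49 ± 0.14 (adjusted p = 0.0756). MSH6 read 6.6 and 6.50 against 6.94 and 6.92, a difference of -0.38 ± 0.12 (adjusted p = 0.182). For these genes both arrays of clone 66 lay below both control arrays. At an unadjusted p under 0.05 there were 11 members (35.5%), beside 9.55% of all genes.

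Clone 75 had 0 of 31 members past the threshold, beside 0.619% of all genes. At an unadjusted p under 0.05 there were 4 (12.9%), beside 8.12% of all genes. NBN, a subunit of the complex that senses breaks, read 6.11 and 6.06 against 5.74 and 5.68, a difference of 0.38 ± 0.13 (adjusted p = 0.32). FANCL, the ubiquitin ligase of the core complex, read 6.21 and 6.24 against 6.57 and 6.69, a difference of -0.41 ± 0.16 (adjusted p = 0.396), and PMS2 read 5.33 and 5.47 against 5.07 and 4.71, a difference of 0.51 ± 0.20 (adjusted p = 0.426). In clone 66 NBN differed by 0.34 ± 0.13 and FANCL by -0.40 ± 0.16, and both clones share the 2 scrambled-guide arrays. BLM in clone 75 read 5.36 and 5.35, below both control arrays, with a difference of -0.25 ± 0.13 (adjusted p = 0.661).

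The clones, both meant to lack DPPA3, differed from each other in BLM and FANCI, 2 of 31 members beside 2.9% of all genes. Clone 66 was the lower, with log2 differences of -0.56 ± 0.13 for BLM and -0.59 ± 0.14 for FANCI (adjusted p = 0.0124 for both) and no overlap of arrays. MUS81, at 4.92 and 4.80 in clone 66 and 5.23 and 5.41 in clone 75, differed by -0.46 ± 0.14 (adjusted p = 0.089). The BLM call was lost on leaving out either array of either clone (adjusted p = 0.0908 to 0.116), and the FANCI call without clone 66 array 1 or either clone 75 array (0.0819 to 0.237).

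**Figure D3:**
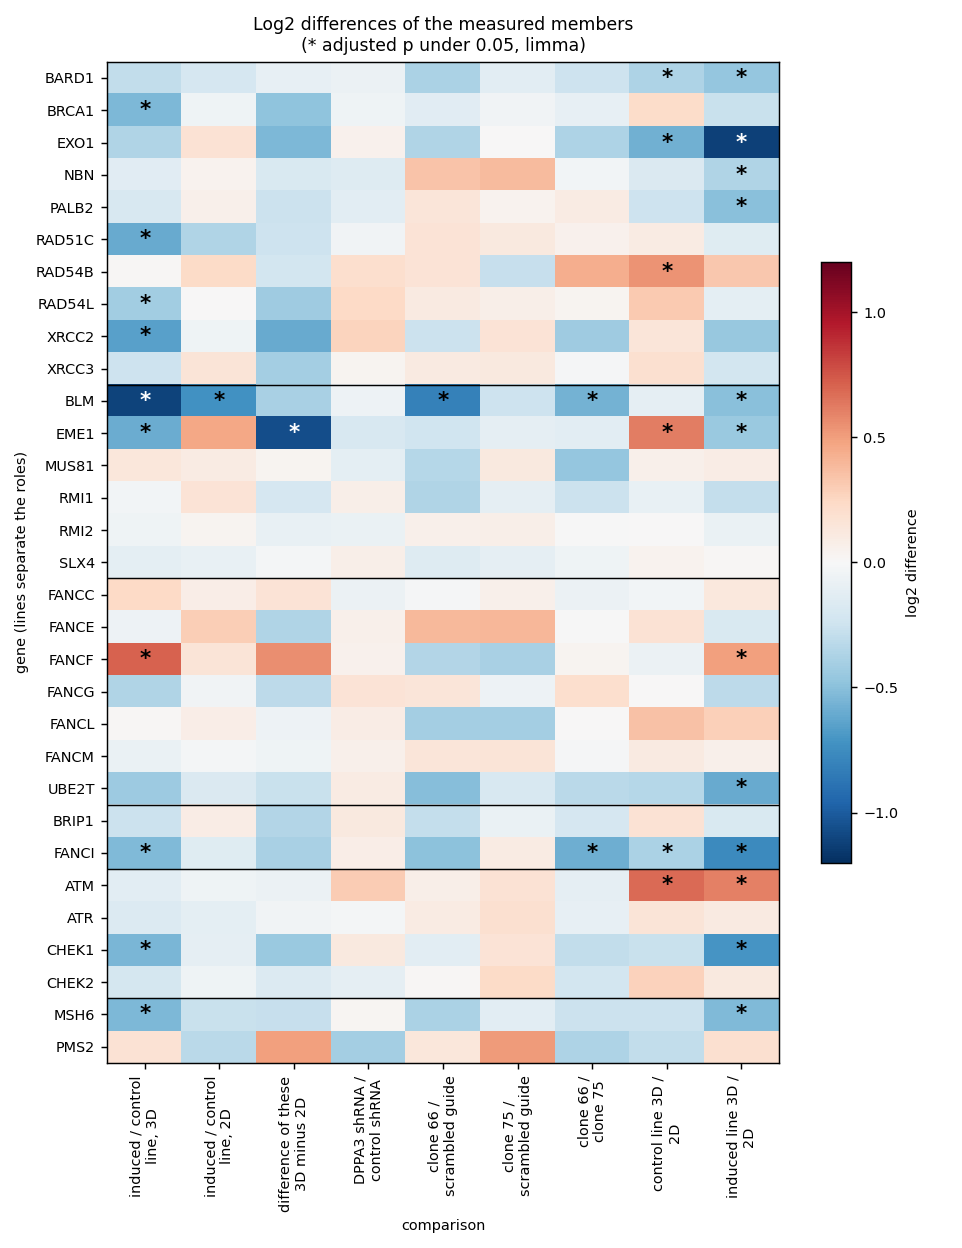
Log2 differences (colour) of the 31 measured members (rows, grouped by role) in the 9 comparisons (columns), with an asterisk where the adjusted p was under 0.05. BLM is marked in 5 of the 9 columns and the knockdown and clone 75 columns hold no mark.

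BLM and FANCI both lie on chromosome 15 with 19 measured genes between them, and each was set beside the 10 nearest measured genes on either side in the gene order of RefSeq. In the induced line in 3D the 20 neighbours of BLM had a median difference of 0.09 and in 2D one of 0.08, against -1.12 and -0.72 for BLM itself. In clone 66 the surroundings moved as well: the 20 neighbours of BLM had a median of -0.33, 18 of them below 0 and 4 past the threshold as lower. The neighbours of FANCI had a median of -0.15 in clone 66, 13 below 0, and one of 0.07 in the induced line in 3D. Among these neighbours TICRR and POLG differed by -0.54 and -0.33 in the induced line in 3D and by -0.38 and -0.40 in clone 66. ISG20 differed by 0.43 in the induced line in 3D and by 0.03 in clone 66. In clone 75 the medians were 0.0072 around BLM and -0.0028 around FANCI. The part of the chromosome region in the clone 66 values of BLM and FANCI, and in the FANCI value of the induced line, was not tested.

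FANCF on chromosome 11 had few neighbours with signal. Over all 20 the median in the induced line in 3D was 0.06, but over the 7 brighter than the median gene it was 0.45, with 6 of 7 above 0, and in 2D it was 0.57 with 7 of 7 above 0. Among them HTATIP2 was higher by 0.81 and 0.71 in 3D and 2D, PRMT3 by 0.90 and 0.77, SVIP by 0.48 and 0.57 and LGR4 by 0.45 and 0.54, while FANCF itself differed by 0.15 ± 0.13 in 2D. The restriction to brighter neighbours was chosen after the values were seen. For the 9 members lower in 3D the median of all 20 neighbours lay between -0.11 and 0.09, and that of the brighter ones between -0.27, for XRCC2, and 0.09, for BLM.

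**Figure D4:**
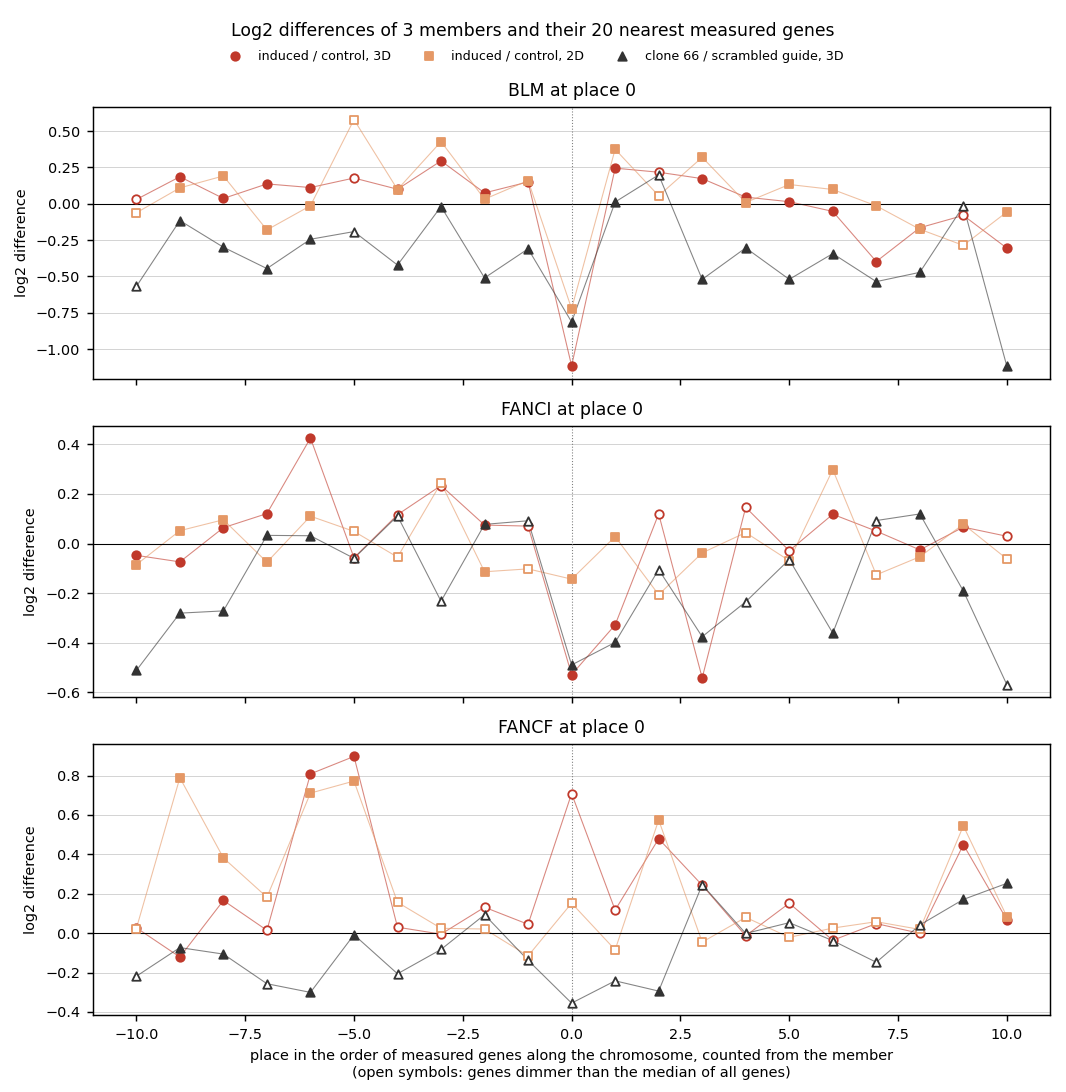
Log2 differences (y axis) of BLM, FANCI and FANCF and their 20 nearest measured genes by place along the chromosome (x axis), for the induced over the control line in 3D and 2D and clone 66 over the scrambled guide; open symbols are genes dimmer than the median gene. In the induced line BLM fell further than each of its 20 neighbours in both cultures, though some of them, such as PRC1 (-0.40 in 3D), were lower too. In clone 66 most neighbours of BLM were lower. Several neighbours of FANCF were higher in the induced line.

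The control line was also compared between 3D, with 5 days of doxycycline, and 2D, with 4 hours of it: 6 of 31 members passed, 3 as higher in 3D (4.92% of all genes) and 3 as lower (2.88%), beside 7.8% of all genes in either direction. ATM read 5.16, 5.27 and 5.17 in 3D and 4.53, 4.71 and 4.32 in 2D, a difference of 0.68 ± 0.12 (adjusted p = 0.00104). RAD54B, a paralog of RAD54L, read 5.72, 5.67 and 5.72 against 5.08, 5.17 and 5.26, a difference of 0.54 ± 0.11 (adjusted p = 0.00315). EME1 read 4.21, 4.36 and 3.82 against 3.88, 3.21 and 3.46 with overlap, a difference of 0.61 ± 0.14 (adjusted p = 0.00582). Lower in 3D were EXO1, BARD1 and FANCI. EXO1 read 5.98, 5.94 and 6.10 against 6.49, 6.69 and 6.56, a difference of -0.57 ± 0.14 (adjusted p = 0.0108). BARD1, the partner of BRCA1, read 5.34, 5.37 and 5.32 against 5.71, 5.62 and 5.81, a difference of -0.37 ± 0.11 (adjusted p = 0.0338). FANCI read 7.06, 7.01 and 7.04 against 7.28, 7.45 and 7.53, a difference of -0.38 ± 0.11 (adjusted p = 0.035). The BARD1 call was lost without control array 1, 2 or 3 in 3D or 1 or 3 in 2D (adjusted p = 0.0703 to 0.127), and the FANCI call without array 1, 2 or 3 in 3D or 2 or 3 in 2D (0.0712 to 0.138). BLM differed by -0.11 ± 0.11.

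In the induced line 12 of 31 members passed between 3D and 2D, 2 as higher in 3D (7.55% of all genes) and 10 as lower (7.35%), beside 14.9% of all genes in either direction. EXO1 read 5.54, 5.97 and 5.42 in 3D and 6.86, 6.75 and 6.66 in 2D, a difference of -1.12 ± 0.14 (adjusted p = 4.17e-06). FANCI read 6.55, 6.39 and 6.58 against 7.23, 7.18 and 7.42, a difference of -0.76 ± 0.11, and CHEK1 read 6.81, 6.95 and 6.80 against 7.65, 7.47 and 7.58, a difference of -0.71 ± 0.10. UBE2T read 5.64, 6.15 and 5.57 against 6.38, 6.19 and 6.61, a difference of -0.60 ± 0.15. In all 4 genes the arrays of the cultures lay apart, by little in UBE2T. MSH6 read 6.68, 6.93 and 6.58 against 7.22, 7.25 and 7.31, a difference of -0.53 ± 0.10. BLM read 5.70, 5.36 and 5.68 against 6.02, 6.18 and 6.05, a difference of -0.50 ± 0.11, and PALB2, the link between BRCA1 and BRCA2, read 5.36, 5.56 and 5.53 against 5.92, 5.96 and 6.09, also -0.50 ± 0.10.

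Smaller differences in that comparison were those of BARD1, EME1 and NBN. BARD1 read 5.16, 5.10 and 4.87 in 3D and 5.39, 5.47 and 5.67 in 2D, a difference of -0.46 ± 0.11. EME1 read 3.45, 3.57 and 3.58 against 4.08, 3.87 and 4.00, a difference of -0.45 ± 0.14 (adjusted p = 0.025), opposite in sign to its change in the control line. NBN read 6.20, 6.22 and 6.22 against 6.66, 6.34 and 6.72, a difference of -0.36 ± 0.11 (adjusted p = 0.0269). The higher ones were ATM, at 5.09, 5.12 and 5.00 against 4.48, 4.29 and 4.62, a difference of 0.61 ± 0.12, and FANCF, at 4.62, 4.72 and 4.39 against 3.93, 4.18 and 4.15, a difference of 0.49 ± 0.13. Of these calls, 3 were lost without 1 array: FANCF without induced array 2 in 3D or 1 in 2D (adjusted p = 0.0538 and 0.0633), EME1 without array 1 in 3D or 1 or 3 in 2D (0.0685 to 0.0952), and NBN without array 1, 2 or 3 in 3D or 1 or 3 in 2D (0.0575 to 0.138). Replication genes were lower in 3D for 14 of 37 in the control line, with a median of -0.34. In the induced line they were lower for 30 of 37 (median -0.66). Mitotic genes were lower for 8 and 18 of 21, and in the control line CENPE (0.68) and CENPF (0.43) were higher in 3D. The part of both lists in the members' differences was not tested. ATM was higher in 3D in both lines, by 0.68 in the control line and 0.61 in the induced line, and the difference between these values was -0.07 ± 0.18 with a 95% interval from -0.44 to 0.29.

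Seen over all 9 groups, BLM had the order control line in 2D (mean 6.80), control line in 3D (6.70), induced line in 2D (6.08), control shRNA (5.66), scrambled guide (5.60), DPPA3 shRNA (5.59), induced line in 3D (5.58), clone 75 (5.35) and clone 66 (4.79). The arrays of the control line overlapped between its 2 cultures, and so did those of both shRNA groups, the scrambled guide and the induced line in 3D. The shRNA and guide arrays belong to other experiments and carry no doxycycline in their labels, so levels across that border are given without a test. The 3 control arrays in 3D lay above all 12 of those arrays for 14 of 31 members, beside 5.29% of all genes, and the 3 induced arrays for 3 of 31, beside 5.03%: BRCA1, FANCF and NBN. Of the 9 members lower in the induced line in 3D, 8 had control arrays above all 12, but these genes were picked through the same control arrays and nothing is read from that share. BLM's 12 arrays ran from 4.78 to 5.78, CHEK1's from 6.41 to 6.92 and MSH6's from 6.50 to 6.95, against 6.58 to 6.78, 7.26 to 7.56 and 7.22 to 7.31 in the control line in 3D. Whether line, doxycycline or experiment sets those levels cannot be told apart.

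Several members showed little of any pattern. SLX4 had a range of 0.17 over the 9 group means and RMI2 one of 0.21, with pooled standard deviations within groups of 0.12 and 0.08. FANCC, FANCE, FANCM and RMI2 were dimmer than the median gene, where changes of this size are hard to see. XRCC3 and ATR had ranges of 0.32 and 0.34, FANCM one of 0.46, CHEK2 one of 0.47 and FANCL one of 0.48. BRIP1, RMI1, FANCG and PMS2 had ranges of 0.81, 0.82, 0.59 and 0.74. None of these members passed in any comparison of the reported fit, but FANCG and FANCL did so under some alternatives. For induction in 3D FANCG passed with array weights (limma, adjusted p = 0.012). The widest ranges were those of EXO1 (2.05) and BLM (2.01), both running from clone 66 at the bottom to a 2D culture at the top.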

How the data were processed

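Total RNA was biotin-labelled for Affymetrix arrays, per the labels. The authors deposited log2 values made with Partek 6.6 and RMA, which corrects background, equalises arrays by quantiles and summarises probe sets, per the submitters' processing notes; no source used here names the genome build. Quantile equalising would hide a change shared by most genes.

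Of 20276 probe sets, 18062 carried 1 gene symbol, 1288 several and 926 none in the platform annotation, with symbols updated by gene identifier through RefSeq (GRCh38.p14). The brightest probe set per gene was kept, giving 17448 genes; each measured member had 1. The limma 3.58.1 package (R 4.3.3) estimated 1 mean per group (15 residual and 9.81 prior degrees of freedom, 2-sided, Benjamini-Hochberg over all genes). On simulated data the fit recovered 97% of changes of 1 log2 unit and 55% of 0.5 for induction in 3D. It recovered 86% and 16% for the difference of induction effects, 95% and 37% for clone 66 and 89% and 21% for clone 75. Each comparison was simulated in a single random draw. Both clone comparisons had equal array numbers, so the gap between their shares is not read as a difference between the clones.

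All 36 members are named. Those that passed, BLM and the 3 smallest p-values of each comparison are given by array, and up to 3 passing genes of each other list in the induction comparisons. Members and lists were chosen with earlier results of these data known. The number of arrays limits the precision.

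Replicate numbers were checked for pairing: same-numbered arrays of 21 pairs correlated in their deviations at -0.21 to 0.17, with 2 over 0.1, so the numbers were not taken to pair arrays. Alternatives were the variance from the groups compared only, a replicate block, a filter on dim genes, all probe sets, quantile normalization, centring, another prior, array weights and leaving out each array.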

Additional observations from a re-analysis of the deposited data

Results flagged for a closer look

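These 3 results were singled out because a contrast differed between clones or cultures by a direct test. BLM and FANCI were lower in clone 66 than in clone 75, with log2 differences of -0.56 and -0.59 (limma, adjusted p = 0.0124 for both), although both clones carry a DPPA3 knockout in their labels. The induction effect on EME1 in 3D minus that in 2D was -1.06 (adjusted p = 0.017). All 3 calls were lost on leaving out some single arrays. Most neighbours of BLM and FANCI along the chromosome were also lower in clone 66 than with the scrambled guide. The part of that region was not tested.

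RAD54B, FANCG and MUS81 had both arrays of one clone above and both arrays of the other below the scrambled-guide arrays. Between clone 66 and clone 75 their log2 differences were 0.44 for RAD54B (adjusted p = 0.0938), 0.20 for FANCG (adjusted p = 0.759) and -0.46 for MUS81 (adjusted p = 0.089), and these direct tests did not pass. With 2 arrays a group such a pattern is easily met.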

How the results depend on the processing

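Of 33 calls of members over the 9 comparisons, 20 held under every alternative run (the first version of the replicate block left aside) and 13 were lost under at least 1, 12 of them on leaving out a single array; 0 of 456 recomputed differences changed sign. The count of members past the threshold moved as follows. With the variance taken from the groups compared only, the difference of induction effects had 0 members and the control line between cultures 3. With dim genes left out, the difference of effects had 0, because EME1 is dimmer than the median and was not tested. Repeated quantile normalization gave 2 members in clone 66 and array weights 3, while array weights gave 4 between the clones. Leaving out arrays gave 1 to 2 members for induction in 2D, 0 to 1 for the difference of effects, 0 to 1 between the clones and 7 to 9 for induction in 3D. Outside single arrays, the calls of BRCA1 and RAD54L in 3D were lost with the variance of the compared groups (adjusted p = 0.071 and 0.137) and with array weights (0.0571 and 0.0574), XRCC2 with array weights (0.0698) and EME1 with the variance of the compared groups (0.0502). Calls for induction in 3D were also gained. FANCG passed with dim genes left out (adjusted p = 0.0396), with array weights (0.012) and without control array 3 (0.00654). UBE2T passed with array weights (0.048) and without induced array 2 (0.00929), and EXO1 without induced array 2 (0.0229). With the replicate number as a block, induction in 3D kept 10 members, the control line between cultures had 5 and the induced line 13: the block ended the BARD1 call in the control line (adjusted p = 0.0622) and added XRCC2 in the induced line (0.0338), and moved no other count of members. This block spans both cultures of the induction experiment. It replaced, after values had been seen, a first version with separate blocks for 3D and 2D, kept here for its counts of members only: 2 for induction in 2D, 0 for the control line between cultures and 5 for the induced line, with the other counts within 1.5 times of those reported. Its terms do not cancel between cultures. The causes of these shifts were not tested. Signals near or below the median gene limit FANCC, FANCE, FANCM, RMI2, EME1 and FANCF.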

Other observations

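FBH1 and BABAM1 are not among the 36 genes but were the other recombination genes lower in the induced line in both cultures, by limma: FBH1 differed by -1.05 in 3D and -0.70 in 2D, and BABAM1 by -0.82 and -0.81. The arrays of both genes lay apart between the lines in each culture. FBH1 was also higher in clone 66 than in clone 75, by 0.89 ± 0.18 (limma, adjusted p = 0.00383). Neighbours along the chromosome were examined for the members only. A shift shared with the region around FBH1 or BABAM1 was therefore not tested.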
